A study of Mus musculus with 6 samples.

Results

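Cholesterol synthesis, fatty acid synthesis and cholesterol export were examined through a list of 34 genes in sorted T cells with and without CTLA-4, the inhibitory receptor that binds CD80 and CD86. Members were found by symbol among the probe sets that the array annotation assigns to a single gene, and each gene was represented by its probe set with the highest mean over the 6 arrays. In this way 32 of the 34 were read, out of 18193 genes read in all, and Acat2 and the LXR gene Nr1h2 were not analysed here. Of the 32, 31 were bright enough to be tested, and the desaturase gene Fads2 was not, with intensities of 2.60, 57.2 and 60.9 in CTLA-4 KO and 12.7, 36.5 and 37.5 in wild type.

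All donor T cells carried the transgenic 5C.C7 receptor, which recognises MCC, a moth cytochrome c peptide. They also lacked RAG2 and bore the CD45.1 marker. The CTLA-4 KO group (3 arrays) in addition had both Ctla4 alleles deleted, and the wild type group (3 arrays) did not. Cells of either genotype were moved into B10.A mice, which were given LPS and MCC peptide, and donor cells were sorted 4 days later. The labels name no deletion in the recipients and give neither ages nor the number of animals behind an array, and every cell carries the same receptor, so the cells stand for a single T cell specificity.

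Cells make cholesterol from acetyl-CoA through mevalonate, squalene and lanosterol. When membranes of the endoplasmic reticulum are poor in sterol, SCAP escorts the SREBP transcription factors to the Golgi, where they are cleaved and released to switch on synthesis genes; INSIG proteins hold them back when sterol is plentiful. LXR receptors work the other way, sensing oxidised sterols and inducing the exporters ABCA1 and ABCG1. T cells that divide after activation draw on SREBP-driven lipid synthesis to build membranes.

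The promoters of some members that differed in a fit described below are shown first, because SREBP and LXR act through short DNA elements there. RefSeq windows (build GRCm38.p6) reaching 250 bases before to 50 bases after the transcription start were matched by symbol for 27 of the 34 members, 35 windows in all. Members without a window included Sqle, Fdps, Fdft1 and Abcg1, and the windows of Msmo1 and Fasn are not printed in full. In the following 4 windows, capitals mark the core sterol regulatory element TCACNCCAC and the CCAAT box, the binding letters of NF-Y, a factor that works with SREBP, on either strand (a CCAAT box on the other strand reads ATTGG).
Hmgcs1 (chr13:119690101-119690400, plus strand): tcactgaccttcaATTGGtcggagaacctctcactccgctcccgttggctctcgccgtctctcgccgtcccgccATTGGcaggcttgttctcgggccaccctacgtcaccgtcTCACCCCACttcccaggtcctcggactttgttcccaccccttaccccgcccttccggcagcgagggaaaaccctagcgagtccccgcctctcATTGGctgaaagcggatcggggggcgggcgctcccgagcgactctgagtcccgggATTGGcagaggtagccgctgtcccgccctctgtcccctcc
Idi1 (chr13:8885356-8885655, plus strand): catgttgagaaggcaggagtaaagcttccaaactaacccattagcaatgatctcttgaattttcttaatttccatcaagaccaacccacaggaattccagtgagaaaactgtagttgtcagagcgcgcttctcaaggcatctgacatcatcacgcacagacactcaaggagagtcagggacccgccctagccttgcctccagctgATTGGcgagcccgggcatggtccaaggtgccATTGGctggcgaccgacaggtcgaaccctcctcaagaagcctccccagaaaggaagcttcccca
Cyp51 (chr5:4104648-4104947, minus strand): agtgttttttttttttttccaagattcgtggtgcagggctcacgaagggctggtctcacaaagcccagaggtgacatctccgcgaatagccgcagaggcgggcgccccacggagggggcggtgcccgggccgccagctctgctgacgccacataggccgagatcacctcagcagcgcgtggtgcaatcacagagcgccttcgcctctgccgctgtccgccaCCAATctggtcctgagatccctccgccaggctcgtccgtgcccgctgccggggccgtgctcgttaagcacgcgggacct
Srebf2 (chr15:82147019-82147318, plus strand): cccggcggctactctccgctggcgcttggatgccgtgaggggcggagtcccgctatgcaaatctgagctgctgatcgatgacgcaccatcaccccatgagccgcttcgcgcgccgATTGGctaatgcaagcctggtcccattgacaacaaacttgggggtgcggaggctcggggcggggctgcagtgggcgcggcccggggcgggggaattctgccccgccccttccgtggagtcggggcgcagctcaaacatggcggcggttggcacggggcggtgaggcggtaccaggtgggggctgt

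A CCAAT box was present in 14 of the 15 sterol synthesis genes with a window (93.3%), against 7401 of 17491 protein-coding genes (42.3%). Counted by window, the shares were 14 of 18 (77.8%) in synthesis genes and 38.2% in protein-coding genes. Acat2 was the synthesis gene without one, Hmgcs1 held 4 and Mvk 5. The core sterol element matched in Hmgcs1 alone among the 27 members, 137 bases before its start, and in 1.41% of protein-coding genes. In fatty acid genes 2 of 5 windows held a CCAAT box, with 3 copies in Fasn.

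LXR binds a direct repeat of the letters AGGTCA with 4 free bases between the copies (DR4). With up to 3 mismatches in its fixed letters, on either strand, this repeat was found in 9 of 27 members (33.3%) and in 23.0% of protein-coding genes, so a match alone is common. The allowance of 3 was set after the Abca1 window was seen; with up to 2 mismatches 1 of 27 members, Dhcr7, and 3.1% of protein-coding genes matched, and Abca1 did not. The match in Abca1, the exporter that differed between genotypes, lay 67 bases before its start, and its outer letters recurred in Fasn and Srebf1, both also known as LXR targets. The letters shared by these 3 members, TGACCGNNAGTAACCC, a pattern written down after the sequences were seen, occurred in 3 of 17491 protein-coding genes, which are these 3. Capitals mark the repeat in the stretches of 40 bases below.
Abca1 (chr4:53159935-53159974, minus strand): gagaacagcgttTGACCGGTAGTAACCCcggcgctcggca
Fasn (chr11:120824745-120824784, minus strand): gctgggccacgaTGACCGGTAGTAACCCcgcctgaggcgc
Srebf1 (chr11:60210626-60210665, minus strand): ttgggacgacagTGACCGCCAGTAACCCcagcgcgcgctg

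A match is a description of letters and not proof of binding. The full Abca1 window, with the same repeat in capitals, is given for comparison with the synthesis genes, and it held neither a CCAAT box nor the core sterol element.
Abca1 (chr4:53159846-53160145, minus strand): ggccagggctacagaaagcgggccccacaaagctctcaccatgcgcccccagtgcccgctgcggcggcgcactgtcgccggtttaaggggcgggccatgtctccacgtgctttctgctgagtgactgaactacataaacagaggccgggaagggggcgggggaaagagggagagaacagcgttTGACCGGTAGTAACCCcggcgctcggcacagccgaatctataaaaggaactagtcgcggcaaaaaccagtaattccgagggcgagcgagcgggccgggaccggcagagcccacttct

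Intensities are the deposited values, in which all 6 arrays share a trimmed mean, and a log2 difference is the CTLA-4 KO mean less the wild type mean on the log2(intensity + 16) scale. Ctla4 itself had 812, 791 and 784 in CTLA-4 KO and 5332, 4787 and 4587 in wild type, a clear reduction in the arrays labelled CTLA-4 KO. Replicate numbers were shared by the genotypes and the same-numbered arrays deviated together, so values with the replicate number as a block are given beside those without it where a call differs. The 5′ to 3′ signal ratio of Actb, a sign of RNA integrity, was 0.567, 0.691 and 0.544 in CTLA-4 KO and 0.418, 0.410 and 0.584 in wild type. That of Gapdh was low on every array, at 0.109, 0.205 and 0.178 in CTLA-4 KO and 0.103, 0.0955 and 0.250 in wild type. The titles call the arrays biological replicates, without saying how the animals were divided among them. Replicate 2 of both genotypes had high Xist (12599 in CTLA-4 KO and 14608 in wild type), so its donors differed in sex from the others. Whether the other replicates had separate donors is not stated, and each p-value covers no more than the spread among the arrays.

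Sterol synthesis genes were mostly higher in CTLA-4 KO cells and the exporter Abca1 was lower. Of the 31 members tested, Idi1 and Sqle rose and Abca1 fell (limma, adjusted p under 0.05), where 1.19% of all 11990 tested genes rose, 0.5% fell and 1.69% changed in either direction. All 3 calls were lost with no filter on dim probe sets (limma adjusted p = 0.0531, 0.0546 and 0.0682 for Idi1, Sqle and Abca1) and with no intensity trend in the moderation (0.129, 0.129 and 0.1425). With the replicate block 9 members rose, adding Hmgcs1, Fdps, Fdft1, Cyp51, Msmo1, Srebf2 and Fasn, and Abca1 was still the one that fell, where 5.48% of all genes rose, 3.44% fell and 8.92% changed in either direction. At an unadjusted p under 0.05, 12 members were higher and 1 was lower, where 9.42% and 7.11% of all genes were. In 14 members every CTLA-4 KO array lay above every wild type array, which 12.2% of all genes showed, and in 2 members, Abca1 and Ggps1, every one lay below, which 10.6% showed. Over the 31 members the median log2 difference was 0.25, and 26 differences were positive, while the median of all tested genes was 0.0018 with 50.3% positive. The members were chosen with earlier results of these data known, so these counts describe the list and do not test it.

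**Figure D1:**
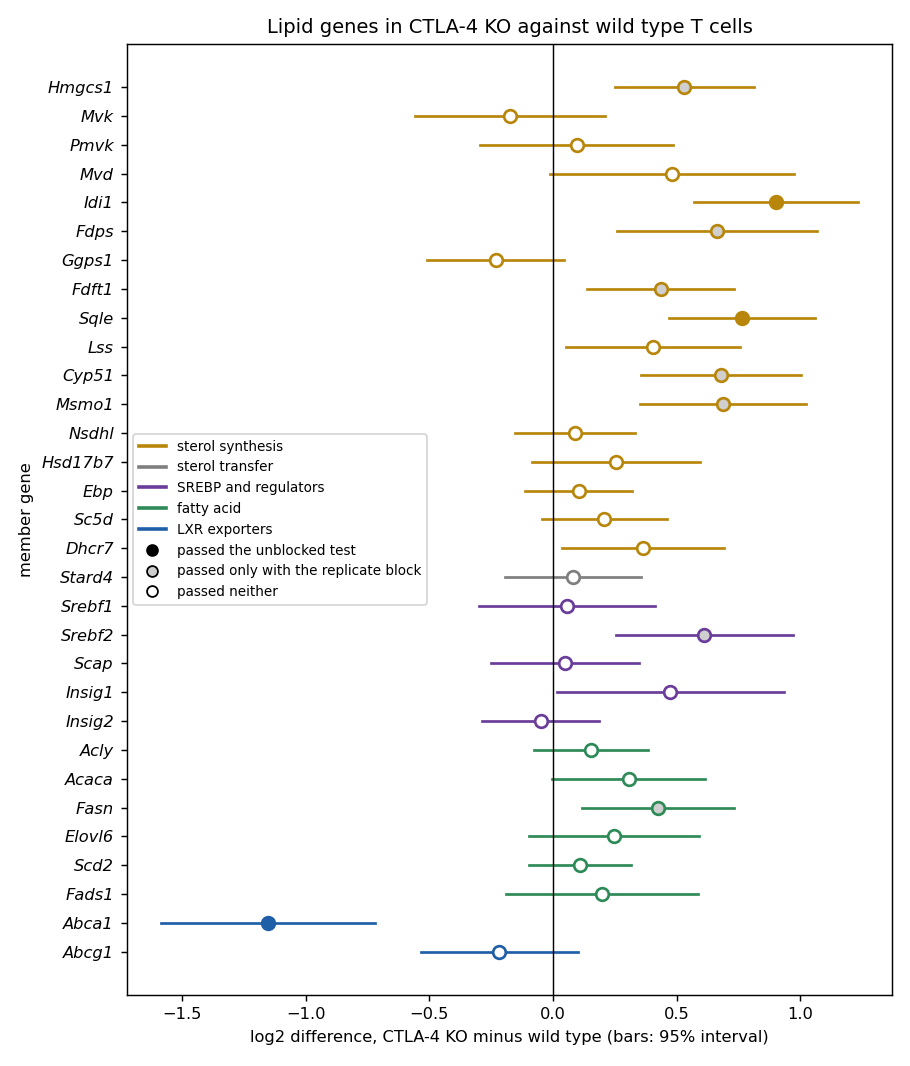
Log2 difference (CTLA-4 KO minus wild type, x axis) of the 31 tested members with 95% intervals from limma, coloured by role; filled points passed the test, grey points passed only with the replicate block and open points passed neither. Idi1 (0.90) and Sqle (0.76) lie furthest right and Abca1 (−1.15) furthest left.

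The first steps, from acetyl-CoA to isoprenoids, held Idi1, which had the larger difference of the 2 members that rose. This isomerase makes dimethylallyl pyrophosphate. Idi1 had intensities of 1329, 1223 and 1079 in CTLA-4 KO and 740, 657 and 533 in wild type. The lowest CTLA-4 KO array was well above the highest wild type array, and the difference in log2 was 0.90 ± 0.15 (SE, with limma adjusted p = 0.0212), a ratio of means of 1.88. Leaving out CTLA-4 KO replicates 1 or 2 or wild type replicates 2 or 3 raised the limma adjusted p to 0.0583, 0.119, 0.0565 and 0.0628, and leaving out pairs 2 or 3 to 0.229 and 0.0919, while the difference stayed between 0.78 and 1.01 over all fits that left out an array or a same-numbered pair.

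Hmgcs1, the synthase that makes HMG-CoA, had 5641, 5778 and 5011 in CTLA-4 KO and 4022, 4304 and 3113 in wild type. Again no arrays overlapped. Its difference of 0.53 ± 0.13 missed the threshold without the block (limma adjusted p = 0.0759) and passed with it (0.00354). Fdps, which joins isoprene units into farnesyl pyrophosphate, had 224, 317 and 265 in CTLA-4 KO and 171, 166 and 150 in wild type. The genotypes did not overlap, and the difference was 0.66 ± 0.18 (limma adjusted p = 0.114, and 0.0331 with the block).

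The kinases of the same stretch passed neither fit. Mvk, mevalonate kinase, averaged 195 ± 24.3 in CTLA-4 KO and 222 ± 18.3 in wild type (SD, n = 3 arrays each, as for all later means), with a 95% interval of the log2 difference from −0.56 to 0.21. Pmvk, the kinase that follows it, averaged 615 ± 132 in CTLA-4 KO and 568 ± 64.5 in wild type, with an interval from −0.30 to 0.49. The decarboxylase gene Mvd averaged 223 ± 10.8 in CTLA-4 KO and 160 ± 47.9 in wild type, with a difference of 0.48 ± 0.22 (limma adjusted p = 0.334). Ggps1, which leads farnesyl pyrophosphate towards protein prenylation and away from sterols, had 732, 800 and 864 in CTLA-4 KO and 1025, 906 and 891 in wild type. Here the CTLA-4 KO arrays were the lower ones without overlap, but the difference of −0.23 ± 0.13 did not pass (limma adjusted p = 0.415, and 0.248 with the block).

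All 3 enzymes that make squalene and turn it into lanosterol had every CTLA-4 KO array above every wild type array, which 12.2% of all genes showed. Sqle, the squalene epoxidase, had 932, 1137 and 1188 in CTLA-4 KO and 622, 664 and 603 in wild type. The wild type arrays were tightly grouped and the difference was 0.76 ± 0.13 (limma adjusted p = 0.0261), a ratio of means of 1.72. That call held without CTLA-4 KO replicate 1 and without pair 1. It was lost without CTLA-4 KO replicates 2 and 3 (limma adjusted p = 0.152 and 0.0973) and without wild type replicates 1, 2 and 3 (0.0566, 0.0565 and 0.0867), as well as without pairs 2 and 3 (0.246 and 0.226), with differences between 0.67 and 0.87 over all these fits. Fdft1, squalene synthase, had 1712, 1801 and 1673 in CTLA-4 KO and 1291, 1501 and 1065 in wild type, a difference of 0.44 ± 0.13 (limma adjusted p = 0.151, and 0.0212 with the block). The cyclase gene Lss had 442, 450 and 418 in CTLA-4 KO and 318, 281 and 386 in wild type. Its difference of 0.41 ± 0.16 passed neither fit (limma adjusted p = 0.251, and 0.110 with the block).

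Between lanosterol and cholesterol all 7 differences were positive, and Cyp51 and Msmo1 passed with the block. Cyp51, the lanosterol demethylase, had 1091, 1030 and 983 in CTLA-4 KO and 772, 619 and 546 in wild type. Its difference was 0.68 ± 0.15 (limma adjusted p = 0.055, and 0.00317 with the block). Msmo1, the oxidase of the next demethylations, had 1083, 1206 and 1028 in CTLA-4 KO and 801, 704 and 553 in wild type. The difference was 0.69 ± 0.15 (limma adjusted p = 0.0599, and 0.00371 with the block), and neither gene had overlapping arrays. The other enzymes of this stretch passed neither fit. Their differences were 0.37 for the reductase gene Dhcr7, 0.26 for Hsd17b7, 0.21 for the desaturase gene Sc5d, 0.10 for the isomerase gene Ebp and 0.091 for the dehydrogenase gene Nsdhl. Nsdhl averaged 1361 ± 6.05 in CTLA-4 KO and 1280 ± 93.3 in wild type, with an interval of the log2 difference from −0.15 to 0.33. Stard4, which carries cholesterol between membranes, averaged 1013 ± 63.3 in CTLA-4 KO and 958 ± 99.0 in wild type (limma adjusted p = 0.799).

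**Figure D2:**
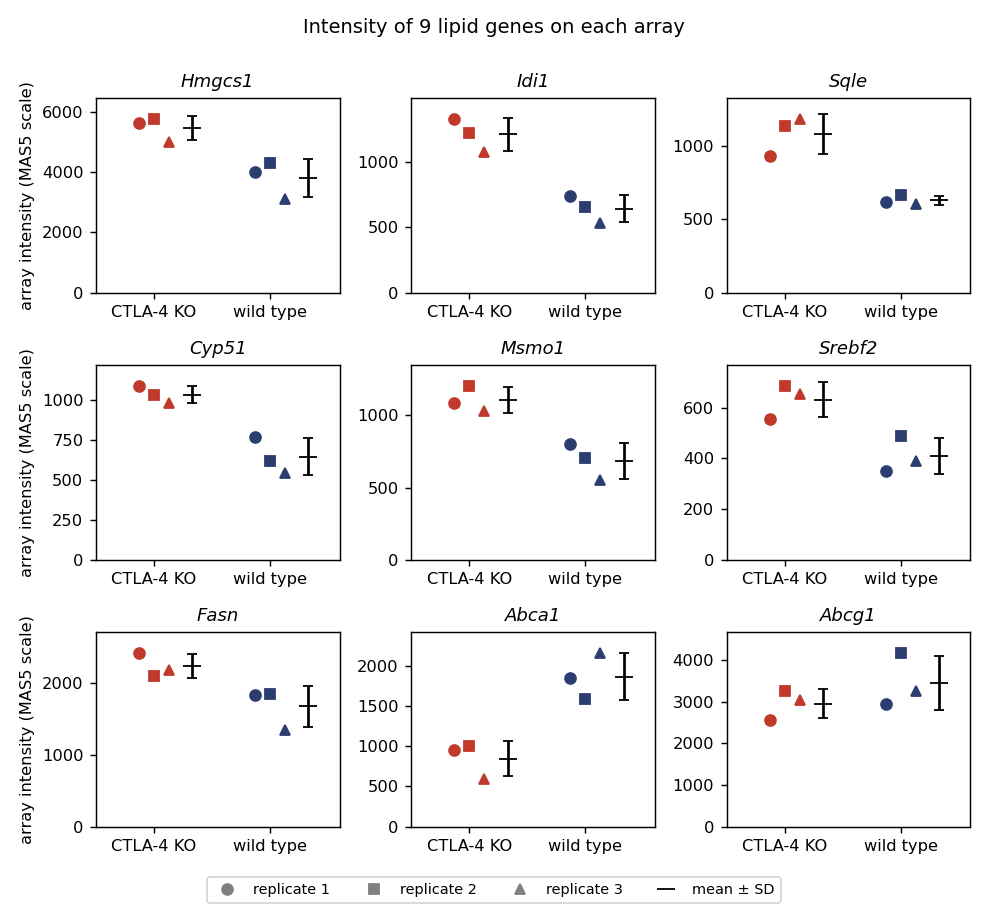
Array intensity (y axis, linear, from 0) of 9 lipid genes on the 3 CTLA-4 KO arrays (left in each panel) and the 3 wild type arrays (right), with the symbol giving the replicate number and the black mark the mean ± SD. The genotypes do not overlap in 8 of the panels, with Abca1 lower in CTLA-4 KO, and they overlap for Abcg1. Apart from Abcg1 the panels show genes that passed with or without the block, so this count reflects their choice. Of the 31 tested members, 14 lay above without overlap and 2 below, where 12.2% and 10.6% of all genes did.

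Of the 5 regulators, 1 passed with the block, Srebf2, the gene of the cholesterol-directed factor SREBP-2. Srebf2 had 555, 688 and 655 in CTLA-4 KO and 352, 488 and 390 in wild type. No arrays overlapped, and the difference was 0.61 ± 0.16 (limma adjusted p = 0.101, and 0.00979 with the block). Srebf1, which encodes the forms that favour fatty acid genes, averaged 1654 ± 233 in CTLA-4 KO and 1599 ± 333 in wild type, with an interval of the log2 difference from −0.30 to 0.41. Insig1, itself an SREBP target, had 317, 415 and 422 in CTLA-4 KO and 227, 366 and 237 in wild type. Wild type replicate 2 reached into the CTLA-4 KO range, and the difference of 0.47 ± 0.21 did not pass (limma adjusted p = 0.304, and 0.0818 with the block). Insig2 averaged 1346 ± 14.9 in CTLA-4 KO and 1395 ± 78.4 in wild type, with an interval from −0.29 to 0.19. Scap averaged 2550 ± 364 in CTLA-4 KO and 2460 ± 324 in wild type, with an interval from −0.25 to 0.35.

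The 6 tested fatty acid genes all had positive differences, with a median of 0.22, and none passed without the block (limma; 1 of them, Fasn, had an unadjusted p under 0.05). With the probe sets of a gene averaged the median was 0.092, and Acaca and Fads1 had 0.017 and 0.0064. Fasn, the fatty acid synthase, had 2421, 2094 and 2181 in CTLA-4 KO and 1837, 1842 and 1340 in wild type. The genotypes did not overlap, and its difference was 0.43 ± 0.14 (limma adjusted p = 0.173, and 0.0287 with the block). Acaca, the carboxylase that commits acetyl-CoA to fatty acids, had 762, 815 and 1013 in CTLA-4 KO and 685, 731 and 656 in wild type, a difference of 0.31 ± 0.14 (limma adjusted p = 0.328). For Acly, which supplies cytosolic acetyl-CoA, the means were 9615 ± 922 in CTLA-4 KO and 8642 ± 795 in wild type. The remaining members were the elongase gene Elovl6 (difference 0.25) and the desaturase genes Fads1 (0.20) and Scd2 (0.11), each with overlapping arrays. Scd2 had 11939, 13717 and 14595 in CTLA-4 KO and 12070, 12918 and 12194 in wild type.

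Of the exporters, Abca1 fell and Abcg1 did not pass the test. Abca1, which moves cholesterol and phospholipid to apolipoproteins, had 948, 995 and 590 in CTLA-4 KO and 1844, 1584 and 2161 in wild type. Every CTLA-4 KO array was below every wild type array, and the mean of CTLA-4 KO was 45.3% of that of wild type. In log2 it was lower by a difference of −1.15 ± 0.20 (SE, limma adjusted p = 0.0231, and 0.00185 with the block). The limma adjusted p became 0.0563 without CTLA-4 KO replicate 2 and 0.0523 and 0.0913 without wild type replicates 1 and 3, with differences of −1.29, −1.15 and −1.04. Pair 3 carried the widest gap, −1.84, against −0.95 in pair 1 and −0.66 in pair 2, and without that pair the difference was −0.81 (limma adjusted p = 0.0945). Without pairs 1 and 2 the adjusted p of that test was 0.057 and 0.0879, with differences of −1.25 and −1.40.

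Abcg1, which exports cholesterol to lipoprotein particles, had 2568, 3252 and 3045 in CTLA-4 KO and 2936, 4182 and 3258 in wild type. The arrays overlapped, the difference of −0.22 ± 0.14 did not pass (limma adjusted p = 0.51, and 0.167 with the block), and its 95% interval ran from −0.53 to 0.10. Within each pair, however, CTLA-4 KO was the lower one, by −0.19, −0.36 and −0.10 in log2 for pairs 1, 2 and 3.

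Set side by side, the 17 sterol synthesis members had a median log2 difference of 0.41, with 15 positive, and the exporters had −1.15 and −0.22. Taking each gene relative to its own mean over the arrays, the synthesis genes averaged 0.19, 0.23 and 0.13 in CTLA-4 KO and −0.13, −0.13 and −0.29 in wild type on the log2 scale. The exporters averaged −0.34, −0.14 and −0.55 in CTLA-4 KO and 0.23, 0.38 and 0.42 in wild type. Synthesis minus exporters was thus 0.53 ± 0.16 in CTLA-4 KO and −0.53 ± 0.17 in wild type, a shift of 1.05 in log2. Taking genes relative to their own mean makes these group values equal and opposite, so only the shift between them is a result. The synthesis genes shifted by 0.37 and the exporters by −0.68, and most of the exporter share lies in Abca1. Per pair the shift of synthesis minus exporters was 0.89, 0.87 and 1.40. The 6 fatty acid genes shifted by 0.24 on the same scale.

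**Figure D3:**
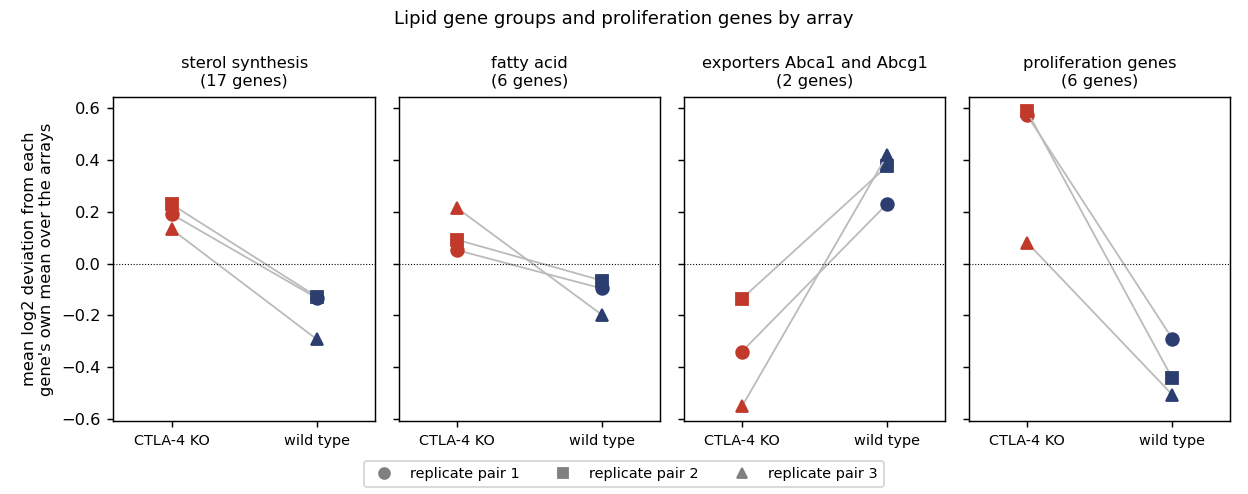
Mean log2 deviation from each gene's own mean over the arrays (y axis) for 17 sterol synthesis, 6 fatty acid, 2 exporter and 6 proliferation genes on each CTLA-4 KO (left) and wild type (right) array, with grey lines joining same-numbered arrays. The synthesis genes lie at 0.13 to 0.23 in CTLA-4 KO and at −0.29 to −0.13 in wild type, and the exporters at −0.55 to −0.14 in CTLA-4 KO and 0.23 to 0.42 in wild type.

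Replicate pairs differed in how far the members moved. Of the 31 tested members, 19 had a positive difference in all 3 pairs, which 23.3% of all genes had, and 3 had a negative one in all, namely Ggps1, Abca1 and Abcg1, which 22.4% of all genes had. The median over synthesis genes was 0.37, 0.29 and 0.64 in pairs 1, 2 and 3, where the medians of all genes were 0.013, −0.013 and 0.012. Idi1 varied little, at 0.832, 0.880 and 0.996. Larger spreads were seen for Dhcr7, at 0.29, 0.067 and 0.74, and for Mvd, at 0.37, 0.19 and 0.88. Pmvk had 0.33, 0.38 and −0.43 and so changed direction in pair 3. Donors of pair 2 had high Xist, at 12599 in CTLA-4 KO and 14608 in wild type, against at most 107 on the other arrays, so this pair also differs in donor sex.

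**Figure D4:**
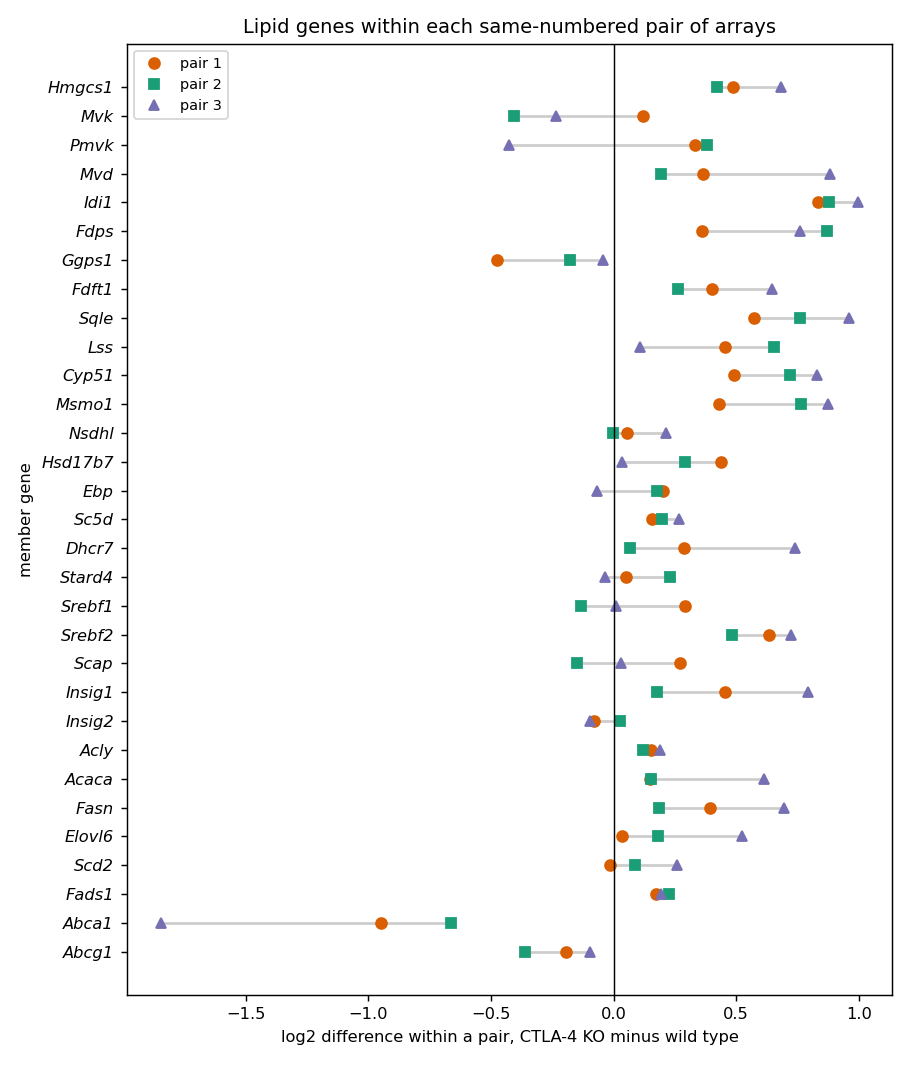
Log2 difference within each same-numbered pair of arrays (CTLA-4 KO minus wild type, x axis) for the 31 tested members, with grey bars spanning the pairs. Idi1 lies at 0.832 to 0.996 in all pairs, while Abca1 ranges from −1.84 to −0.66.

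Other probe sets of the same genes gave a second reading within the same RNA. Besides the chosen ones, 46 probe sets read members, 37 of them bright enough to be tested, and 29 of these had the same sign as the chosen probe set. Without the block 3 of the 37 rose and none fell, where 0.785% of all 27022 tested probe sets rose, 0.47% fell and 1.25% changed in either direction. With the block 7 rose and none fell, where 3.86% rose, 4.8% fell and 8.66% changed in either direction. The second Idi1 probe set had a difference of 1.16 (limma adjusted p = 0.0119). Those of Cyp51 and Hmgcs1 that passed had 0.92 (0.015) and 0.62 (0.0212), so both genes passed without the block by another probe set. All 4 further Hmgcs1 probe sets were higher in CTLA-4 KO without overlap, as was the second Srebf2 probe set, with a difference of 0.56 (limma adjusted p = 0.144, and 0.0343 with the block). The second Fdft1 probe set and one of Stard4 also rose only with the block, by 0.52 and 0.40. For Abca1 the picture rests on a single bright probe set. A second one was dim, at 54.3 in CTLA-4 KO and 63.98 in wild type, with a difference of −0.21 (limma adjusted p = 0.782), and the third was below the filter. With the probe sets of a gene averaged, the Abca1 difference was −0.68 (limma adjusted p = 0.0991). Abcg1's second probe set had a difference of −0.54 (limma adjusted p = 0.238). The 8 of opposite sign were further probe sets of Lss, Sc5d, Scap, Acly, Acaca and Fads1, and none of them passed.

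Related genes outside the list were looked at in 4 further lists of 43 genes, of which 37 were read and 33 tested. Only Acsl3, which activates long-chain fatty acids on lipid droplets, rose without the block, with means of 368 ± 62.8 in CTLA-4 KO and 171 ± 10.7 in wild type (difference 1.03 ± 0.17, limma adjusted p = 0.023), and none fell. With the block Scarb1, the receptor for high-density lipoprotein, passed as well, at 762 ± 86.9 in CTLA-4 KO and 486 ± 63.7 in wild type (difference 0.63, limma adjusted p = 0.0714, and 0.0111 with the block). Among all tested genes 1.19% rose and 0.5% fell without the block, and 5.48% rose and 3.44% fell with it. The 2 of 33 that rose with the block are thus near the share of all genes. The median over the 33 was 0.011, with 17 positive. Nr1h3, the LXR alpha gene, was dim at 128 ± 13.6 in CTLA-4 KO and 115 ± 10.7 in wild type (limma adjusted p = 0.775). Mylip, an LXR target and ubiquitin ligase, averaged 2368 ± 305 in CTLA-4 KO and 2629 ± 491 in wild type (0.709), and Lpcat3, another LXR target, averaged 1749 ± 211 in CTLA-4 KO and 1578 ± 98.3 in wild type (0.618).

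Other signals moved along with the lipid genes. Of 6 proliferation genes read, 3 rose without the block, 5 rose with it and none fell (limma, with all 6 higher at an unadjusted p under 0.05). Of all genes 1.19% rose and 0.5% fell without the block, 5.48% rose and 3.44% fell with it, and 9.42% were higher at the unadjusted threshold. Pcna passed neither fit (limma adjusted p = 0.29, and 0.154 with the block). Its arrays overlapped, and its difference in pair 3 was −0.11. Mki67 averaged 7013 ± 1469 in CTLA-4 KO and 3160 ± 290 in wild type, Rrm2 averaged 4068 ± 1016 in CTLA-4 KO and 1733 ± 167 in wild type, and Mcm5 averaged 4174 ± 436 in CTLA-4 KO and 2863 ± 232 in wild type (limma adjusted p = 0.00989, 0.0127 and 0.0494). With the block Cdk1, at 913 ± 249 in CTLA-4 KO and 418 ± 100.4 in wild type, and Top2a, at 3561 ± 760 in CTLA-4 KO and 2119 ± 221 in wild type, rose too (limma adjusted p = 0.00026 and 0.00185, against 0.0517 and 0.055 without it). Over the 6 genes the median log2 difference was 0.91, and the mean deviation was 0.57, 0.59 and 0.081 in CTLA-4 KO and −0.29, −0.44 and −0.51 in wild type. In pairs 1, 2 and 3 the proliferation genes shifted by 0.86, 1.03 and 0.59 and the sterol synthesis genes by 0.32, 0.36 and 0.43. For Actb, the 5′ to 3′ ratio had means of 0.601 ± 0.0791 in CTLA-4 KO and 0.471 ± 0.0982 in wild type. With that ratio as a term no member passed (limma; 11 members were higher and 1 lower at an unadjusted p under 0.05), while the differences were 1.05 for Idi1, 0.78 for Sqle and −1.49 for Abca1 (limma adjusted p = 0.162, 0.247 and 0.0615). Of all 27022 tested probe sets 21 passed with that term. The part of proliferation in the lipid differences was not tested.

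Macrophages express Abca1 strongly, so markers of macrophages, monocytes and dendritic cells were read beside it. Of 13 such genes 8 were above the filter and none passed, with or without the block (limma; 1 was higher and 0 were lower at an unadjusted p under 0.05). At that unadjusted threshold 9.42% of all tested genes were higher and 7.11% lower. Of the 8, 6 had a negative difference, the direction of Abca1, and 2 a positive one, with a median of −0.18. The summed intensity of all 13 ran from 734 to 948 in CTLA-4 KO and from 867 to 956 in wild type. Above the filter were Csf1r, at 123 in CTLA-4 KO and 130 in wild type, Spi1, at 102 in CTLA-4 KO and 123 in wild type, and Adgre1, at 67.9 in CTLA-4 KO and 83.3 in wild type. Lyz2 averaged 30.2 in CTLA-4 KO and 57.8 in wild type, Cd209a 35.4 in CTLA-4 KO and 43.1 in wild type, and Cd68 132 in CTLA-4 KO and 83.1 in wild type. Every CTLA-4 KO array was below every wild type array for Itgax, at 53.6 in CTLA-4 KO and 70.7 in wild type, and for Xcr1, at 7.34 in CTLA-4 KO and 25.5 in wild type, and the reverse held for Cd68. Among all tested genes 10.6% lay below in this way and 12.2% above. Below the filter, besides Xcr1, were Itgam, Apoe, Cd14 and Fcer1g, with means of 5.27 to 39.7 over both genotypes, and no marker was exactly at 0. The part of such cells in the Abca1 difference was not tested. The brightest of the list, Cd74, averaged 231 ± 25.5 in CTLA-4 KO and 199 ± 49.96 in wild type. B cell markers summed to 127 to 246 in CTLA-4 KO and 229 to 356 in wild type, with 2 of 6 above the filter. Each of the 6 had a lower mean in CTLA-4 KO, and neither gene above the filter passed. The brighter of these, Cd79b, averaged 91.5 ± 15.6 in CTLA-4 KO and 110 ± 8.79 in wild type. Below the filter, Pax5 averaged 20.4 in CTLA-4 KO and 46.6 in wild type, and Ebf1 6.58 and 18.2. Every CTLA-4 KO array of Pax5 and Ebf1 was below every wild type array. T cell markers summed to 49074 to 50625 in CTLA-4 KO and 48581 to 55120 in wild type, led by Thy1 at 15837 ± 346 in CTLA-4 KO and 14490 ± 1880 in wild type. None of the 6 passed without the block (limma; 2 were lower and 0 higher at an unadjusted p under 0.05), and with it Cd3g and Cd28 fell. With the block 5.48% of all tested genes rose and 3.44% fell. Cd3g averaged 6260 ± 155 in CTLA-4 KO and 8021 ± 933 in wild type, and Cd28 averaged 9472 ± 232 in CTLA-4 KO and 11964 ± 525 in wild type (limma adjusted p = 0.122 and 0.0731, and 0.029 and 0.0299 with the block). For both, every CTLA-4 KO array was below every wild type array, which 10.6% of all tested genes showed. In bulk RNA such as this, fewer cells with a transcript and less transcript per cell cannot be told apart.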

How the data were processed

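Total RNA of sorted T cells (2 µg per array) was extracted with Trizol, and biotinylated cRNA was put on Affymetrix arrays, as the labels' protocols state. For each of 45101 probe sets the authors deposited an intensity on each of the 6 arrays. The processing notes of the submitters name MAS5 and Partek, giving no versions. Each deposited intensity is on a linear scale and scaled to a common trimmed mean, with background correction and probe summary done before deposit, which leaves dim values noisy. A genome build, not given in the sources used here, was not needed for these values.

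Groups came from sample titles. Values were turned into log2(intensity + 16), without the 64 control probe sets. Probe sets were kept where the mean log2 value over the 6 arrays reached the 40th percentile (an intensity of 35.4), which left 27022. Genotypes were compared by limma 3.58.1 in R 4.3.3 (lmFit, then eBayes allowing a trend with intensity; 4 degrees of freedom remained, and tests were two-sided), with Benjamini-Hochberg adjustment over all kept probe sets and a threshold of 0.05. It called 339 probe sets. No block was used in the first fit. Same-numbered arrays deviated from their group means together (r of 0.371, 0.240 and 0.254 for pairs 1, 2 and 3), and replicate numbers were therefore treated as pairs. Values for arrays of unlike number are not given. Deviations cancel out within a group, so a factor shared in a single pair, such as the donor sex of pair 2, can raise the other r values. These r values alone therefore do not settle the pairing.

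Gene names came from the array annotation, which gave 1 gene for 34958 probe sets, several for 932 and none for 9211, and 34754 were updated through RefSeq gene IDs (GRCm38.p6). Of the other pathway and marker lists, genes past the threshold, Nr1h3 and the brightest member of a marker list were to be named, apart from items that are not reported here. Acsl3 is the pathway gene so named. Scarb1, Mylip, Lpcat3, Top2a, Cdk1, Cd3g, Cd28, Pax5, Ebf1 and the markers of macrophages, monocytes and dendritic cells other than Cd74 fall outside that rule and were named after their values were seen. Lists of CD8 T cell, NK cell, and erythroid and platelet markers were read too, and no gene of them passed. Summed intensities of these lists ran from 315 to 513, 75.1 to 99.9 and 38.7 to 67.4 in CTLA-4 KO and from 262 to 422, 67.2 to 113 and 40.4 to 65.9 in wild type. The members, lists and alternatives were chosen with earlier results of these data known. Promoter windows were taken from RefSeq and searched by letters. Alternatives were the pseudocount, the filter, normalization, moderation, array weights, the replicate block, RNA quality terms, the choice of probe set, and leaving out arrays or pairs.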

Additional observations from a re-analysis of the deposited data

How the results depend on the processing

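The directions of Idi1, Sqle and Abca1 were kept under all 23 alternatives tried, but their calls were not: Idi1 passed in 14, Sqle in 13 and Abca1 in 13 of them. Abca1 did not pass with no filter on dim probe sets (−1.15, adjusted p = 0.0682), without moderation by intensity (−1.15, 0.1425), with a term for the Actb ratio (−1.49, 0.0615) or with probe sets of a gene averaged (−0.68, 0.0991), and spanned −1.40 to −0.81 when an array or a pair was left out. Abcg1 passed under none of them (limma adjusted p of 0.167 to 0.829).

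The number of members that rose was 0 with no filter, without the trend and with the Actb term (limma; 12, 10 and 11 had an unadjusted p under 0.05), 4 with the filter at the 60th percentile, under median centring and with array weights, 6 with the Gapdh term, 9 with the replicate block, and 0 to 3 when an array or pair was left out. The number that fell was 0 with no filter, without the trend, with the Actb term and with the mean of probe sets, and 0 to 1 when an array or pair was left out. Shares of all genes at the unadjusted threshold were not taken in these fits. The 339 calls over all 27022 probe sets became 111 of 45037 with no filter, 20 without the trend, 521 with array weights, 2341 with the replicate block, 21 with the Actb term, 168 of 17014 with the mean of probe sets, and 46 to 217 when an array or pair was left out, the lowest without pair 2. They became 483 of 18015 with the filter at the 60th percentile, 460 under median centring and 396 with the Gapdh term. Of all calls 73.5% were higher in CTLA-4 KO under median centring, 44.6% with the block, 42.9% with the Actb term and 62.5% as scaled by the authors. With the replicate block no member lost its call. The cause of these changes was not tested, beyond the fewer or more features and samples that some alternatives hold by construction.

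The median of the sterol synthesis genes was 0.58 with the Actb term and 0.33 with the mean of probe sets, and 0.31 to 0.51 when an array or pair was left out. Synthesis minus exporters was 1.28 and 0.85 under the same terms and 0.88 to 1.15 when an array or pair was left out. The fatty acid median lay between 0.092 and 0.30 throughout. Directions turned for uncalled genes, the largest by its first value being Sc5d (0.21): Insig2 under median centring (0.0088), Pmvk (−0.12) and Stard4 (−0.058) with the Actb term, Sc5d (−0.071) and Scap (−0.078) with the mean of probe sets, and Pmvk (−0.049 to 0.36), Scap (−0.061 to 0.15) and Srebf1 (−0.061 to 0.22) when an array or pair was left out. Precision is limited by how few arrays there are, and with 3 against 3 an exact permutation test cannot go below p = 0.1.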
